A study of Homo sapiens with 9 samples.

Results

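The nucleosome remodelling factor NURF was followed here through 3 genes, BPTF, SMARCA5 and RBBP4. They were taken by symbol from a table of H2A signal over 20318 protein-coding genes, which held all 3. The ChIP-seq libraries came from T47D-MTVL, a breast cancer cell line of luminal type that carries a reporter under the promoter of mouse mammary tumour virus. Unstimulated cells (0 min) were held without serum for a day after growth in charcoal-treated serum, and stimulated cells received in addition R5020, a synthetic progestin, at 10 nM. H2A, a core histone, was read at 0, 30 and 60 min, and HP1γ, LSD1 and BPTF protein at 0 and 30 min. Each antibody and time had 1 library, so no difference below has a replicate check and no p-value was computed. These are libraries of 1 line, and they do not measure RNA or protein, so the cell type could not be checked against its markers.

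BPTF encodes the largest subunit of NURF, a reader of methylated histone H3 that brings the complex to nucleosomes. SMARCA5 encodes SNF2H, an ISWI ATPase that slides nucleosomes along DNA and that also drives other remodelling complexes. Its paralog SMARCA1 encodes SNF2L, the ATPase usually named for human NURF. RBBP4 encodes a WD-repeat protein that binds histones and is shared by NURF, the deacetylase complexes NuRD and SIN3, Polycomb repressive complex 2 and the histone chaperone CAF-1. HP1γ is a reader of methylated H3 found at silent and at transcribed chromatin, and LSD1 is a histone demethylase. NURF itself is a cofactor of steroid receptors. The BPTF antibody marks the protein product of the first of the 3 genes.

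The genes lie on different chromosomes, all on the plus strand, and coordinates are on GRCh37 (hg19). BPTF (ENSG00000171634) spans 158.7 kb of chromosome 17 (65821780 to 65980494) at 40.8% GC. SMARCA5 (ENSG00000153147) spans 44.02 kb of chromosome 4 (144434616 to 144478639) at 35.5% GC. RBBP4 (ENSG00000162521) spans 29.0 kb of chromosome 1 (33116818 to 33145805) at 43.4% GC. Peaks were counted in each gene body plus 50 kb on each side, which is called the window of the gene.

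Stretches of the BPTF gene, and 1 beside RBBP4, show what the peaks below cover. Each is written 5′ to 3′ on the plus strand. The first is the middle of the BPTF peak that was displaced after hormone and lies in an intron (chr17:65835362-65835661). The next is the middle of the HP1γ peak with the highest score in the gene at 30 min (chr17:65874186-65874485), also intronic. The third is the middle of the LSD1 peak at 30 min, also intronic (chr17:65877283-65877582). The last is the stretch between the outermost annotated starts of ZBTB8OS and RBBP4 (chr1:33116505-33116742), in which capitals mark the bases inside an HP1γ peak of 30 min.
BPTF peak displaced after hormone: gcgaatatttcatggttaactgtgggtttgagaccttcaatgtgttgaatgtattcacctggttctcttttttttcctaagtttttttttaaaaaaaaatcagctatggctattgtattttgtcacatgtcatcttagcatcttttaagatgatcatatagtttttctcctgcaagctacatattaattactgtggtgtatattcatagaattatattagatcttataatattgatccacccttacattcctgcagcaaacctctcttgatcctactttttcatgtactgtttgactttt
HP1γ peak at 30 min: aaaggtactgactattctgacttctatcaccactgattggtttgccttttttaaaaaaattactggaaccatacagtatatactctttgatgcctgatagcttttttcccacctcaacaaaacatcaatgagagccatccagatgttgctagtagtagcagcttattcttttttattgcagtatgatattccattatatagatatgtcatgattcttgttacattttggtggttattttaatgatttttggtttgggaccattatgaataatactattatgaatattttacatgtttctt
LSD1 peak at 30 min: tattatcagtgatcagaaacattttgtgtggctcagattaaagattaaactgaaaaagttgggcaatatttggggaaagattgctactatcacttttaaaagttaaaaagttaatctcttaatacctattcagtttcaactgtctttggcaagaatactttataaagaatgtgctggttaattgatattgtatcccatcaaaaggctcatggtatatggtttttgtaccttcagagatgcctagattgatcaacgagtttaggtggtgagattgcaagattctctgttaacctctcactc
Start region of RBBP4: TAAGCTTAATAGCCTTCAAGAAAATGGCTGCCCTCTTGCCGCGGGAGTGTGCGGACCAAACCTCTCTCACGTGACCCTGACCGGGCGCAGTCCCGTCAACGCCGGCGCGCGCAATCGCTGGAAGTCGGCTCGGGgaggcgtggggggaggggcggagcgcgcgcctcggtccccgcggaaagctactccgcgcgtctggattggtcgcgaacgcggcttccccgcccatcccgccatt
The stretches from BPTF are AT-rich, with 31.3%, 31.0% and 33.7% GC in the order printed, and hold 0 or 1 CG dinucleotide each. The start region of RBBP4 has 67.6% GC and 32 CG dinucleotides. Of 35116 RefSeq promoters (GRCh38.p14), read over the 238 bases before the start, 92.3% held fewer. All 4 stretches were searched on both strands for TGTTCT, the core hexamer of hormone response elements for the progesterone receptor. It occurs in none of them, so the stretches from BPTF carry no capitals. Over their whole length, 4 of the 16 peaks in the window of BPTF hold TGTTCT, the LSD1 peak of 30 min included, where it lies outside the printed middle. Over 300 bases about the centre, TGTTCT occurs in 25.8% of all 5546 displaced BPTF peaks, 24.4% of HP1γ peaks at 30 min and 23.8% of LSD1 peaks at 30 min. Over the same length it occurs in 23.7% of HP1γ and 25.9% of LSD1 peaks at 0 min. The 4 of 16 were counted over whole, longer peaks, so these shares are not a like-for-like background for that count. Of the RefSeq promoters over the same 238 bases, 11.8% hold TGTTCT.

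The H2A comparison asked how core histone signal over the 3 genes moved after hormone. As deposited, H2A read higher over SMARCA5 at 30 min and was back near its starting level at 60 min. BPTF and RBBP4 moved less at 30 min. With the trend on GC content over all genes taken off, SMARCA5 had a log2 change of 0.08 at 30 min, and RBBP4 had 0.09 at 60 min. None of the 3 genes passed 0.5 either way on the log2 scale at 30 min, where 2.33% of 19709 genes tested did. Nor did any at 60 min against 0 min (background 0.888%) or at 60 min against 30 min (background 1.05%). Signal is in RPKM, reads per kilobase of gene scaled to the depth of the library, and the change is the log2 ratio of RPKM plus 0.05. Errors on changes are standard errors of counting, from reads divided by the number of annotated transcripts, and do not cover the spread between cultures. The comparisons at 30 and 60 min share the 0 min library. RPKM levels follow the number of annotated transcripts in this table (Spearman 0.839 across genes), so they are compared between times and not between genes.

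SMARCA5 had 0.702 RPKM at 0 min, 0.902 at 30 min and 0.723 at 60 min. The 30 min library stands above the other two. The log2 change was 0.34 at 30 min (counting standard error 0.05), above 98.2% of all genes tested, and 0.04 at 60 min (0.05). From 30 to 60 min it was -0.30 (0.05), with 1.22% of genes lower. SMARCA5 is a GC-poor gene, and GC-poor genes read higher as a whole at 30 min. Among the 975 genes within 1 percentage point of its GC content, the median change at 30 min was 0.25 (5th to 95th percentile 0.14 to 0.39), a range that includes SMARCA5. With the GC trend over all genes taken off, the change of SMARCA5 was 0.08 at 30 min, above 84.4% of genes, and turned to -0.04 at 60 min. The value from 30 to 60 min became -0.11, with 8.95% of genes lower. For that comparison the genes of like GC content ran from -0.2996 to -0.0554 (5th to 95th percentile). SMARCA5, at -0.3005 as deposited, lay just below that range. The GC trend at the GC content of SMARCA5 was 0.26 at 30 min.

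BPTF had 8.819 RPKM at 0 min, 8.894 at 30 min and 8.927 at 60 min. The 3 libraries differ by less than the counting error. The log2 change was 0.01 at 30 min and 0.02 at 60 min, each with a counting standard error of 0.02. The median gene had -0.14 at 30 min, from which BPTF stood 0.15 higher. The 2166 genes of like GC content had a median of -0.02 (5th to 95th percentile -0.16 to 0.12). With the GC trend taken off, BPTF had 0.03 at 30 min and 0.00 at 60 min, well inside the spread of all genes (5th to 95th percentile -0.15 to 0.17 at both times).

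RBBP4 had 5.237 RPKM at 0 min, 4.958 at 30 min and 5.511 at 60 min. The 30 min library is the lowest and the 60 min library the highest. The log2 change was -0.08 at 30 min and 0.07 at 60 min, with a counting standard error of 0.06 each, and the first turned to 0.06 when set against the median gene. From 30 to 60 min it was 0.15 (0.06), against a median of 0.09 over all genes. With the GC trend taken off, RBBP4 had 0.03 at 30 min and 0.09 at 60 min, the latter above 87.9% of genes. The last exon region of RBBP4 overlaps SYNC on the opposite strand, and reads were counted on both strands, so the reads shared there cannot be told apart.

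**Figure D1:**
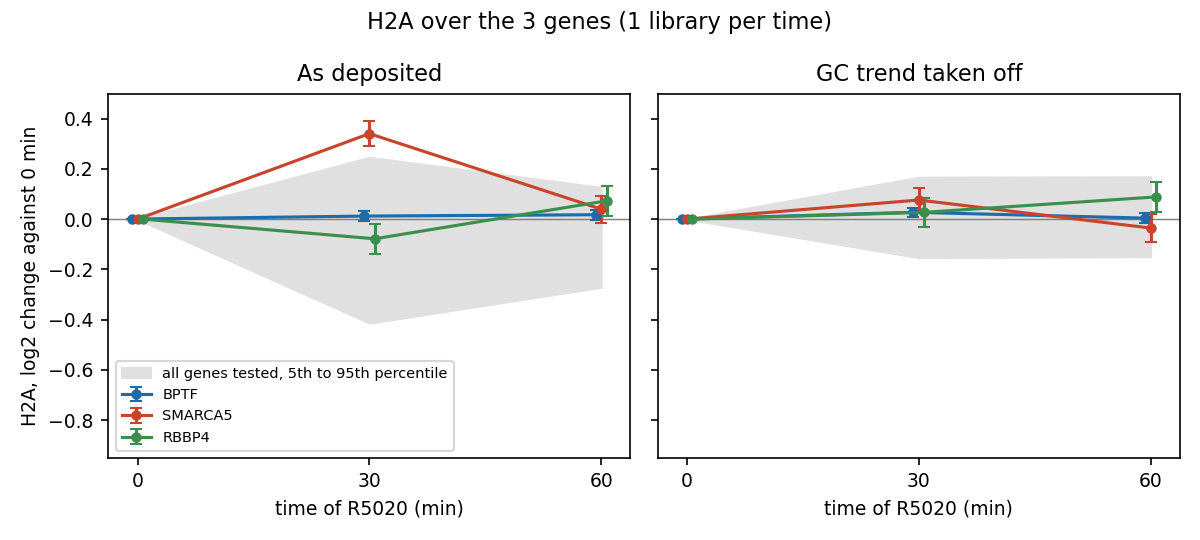
H2A log2 change against 0 min (y axis) by time of R5020 in min (x axis) for BPTF, SMARCA5 and RBBP4, as deposited (left) and with the GC trend over all genes taken off (right). Points are single libraries, bars are 1 counting standard error, and the grey band is the 5th to 95th percentile of the genes tested; SMARCA5 at 30 min (0.34) lies above the band on the left and inside it (0.08) on the right.

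**Figure D2:**
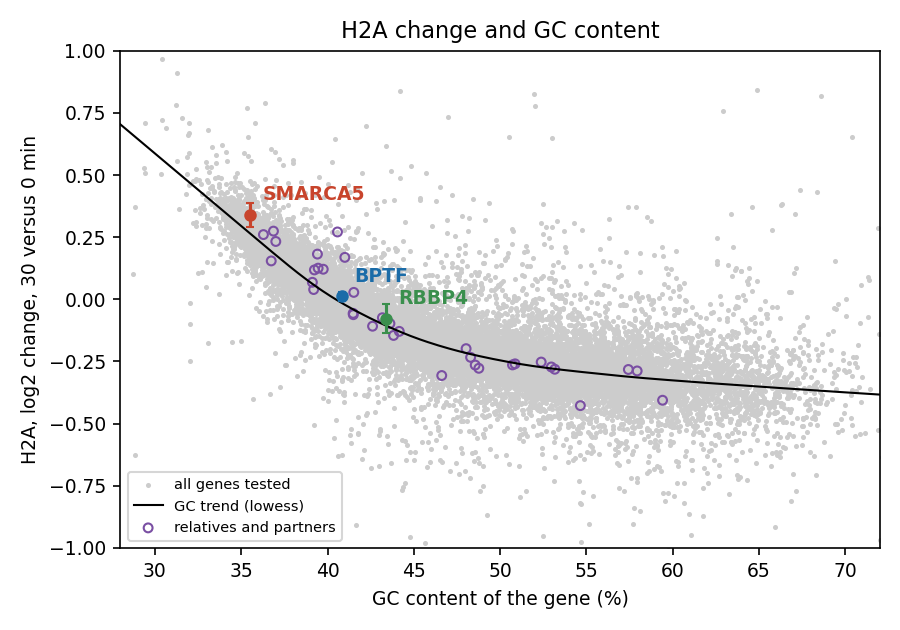
H2A log2 change at 30 min against 0 min (y axis) by GC content of the gene in percent (x axis). Grey points are all genes tested (those beyond the axes are not drawn), the line is the lowess trend, open circles are paralogs, relatives and partners, and bars on the 3 named genes are 1 counting standard error; SMARCA5 at 35.5% GC sits high on the steep part of the trend, and BPTF and RBBP4 sit close to it.

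The genes whose pair of changes (30 and 60 min, each against 0 min, over 3 libraries) came closest to SMARCA5, among genes of at least 10 kb, were VWDE, SREK1 and FBXW7. FBXW7, a ubiquitin ligase subunit, had 0.33 and 0.05, and all 3 have between 33.9% and 36.3% GC. Of 12385 candidates, 99 lay within 0.05 of SMARCA5 on this plane. The closest to RBBP4 were TMEM248, NAT1 and GOT1 (333 within 0.05), and the closest to BPTF were ELAVL4, NPTN and CERS3 (1248 within 0.05). More genes lay near BPTF on this plane than near SMARCA5.

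The window of BPTF (258.7 kb) held 16 peaks over the 6 lists, that of RBBP4 (129.0 kb) held 2, and that of SMARCA5 (144.0 kb) held none. Of all genes of the table, 79.2% had at least 1 peak of any list in their window. Long windows hold more peaks, so counts are set beside the density of the chromosome. At that density the 6 lists together would place 16.7 peaks in the window of BPTF, 5.76 in that of RBBP4 and 1.28 in that of SMARCA5. The total at BPTF was thus close to what the density of chromosome 17 gives. It pools lists that lie above that density (2 displaced BPTF peaks against 0.704) and below it (1 LSD1 peak of 30 min against 2.59). Peaks are also spread unevenly on chromosome 17, with 0 in the window of C17orf49 and 17 in that of SUZ12. The density around BPTF itself is therefore not known from this total. All intervals are exact Poisson 95% intervals that cover the counting of peaks only. The depth of the libraries behind the peak lists is unknown.

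The BPTF gene held 2 of the peaks from which its own protein was displaced after hormone, and no peak of the recruited list. At least 1 displaced peak lay in the window of 18.3% of all genes, and 2 or more in that of 5.20%. The density was 7.73 per Mb (interval 0.936 to 27.9), against 2.72 per Mb on chromosome 17, which would place 0.704 peaks in this window. By density, 9.69% of all genes lay above BPTF. The first displaced peak (65835184 to 65835839, 656 bp) is centred 13.7 kb into the gene, in an intron, and has 31.2% GC. The other (65978584 to 65979192, 609 bp) lies wholly in the 3′ UTR, 1.61 kb before the gene end by its centre. The nearest recruited peak is 867 kb upstream. Recruited peaks were few, with at least 1 in the window of 12.1% of all genes.

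The displaced peak at the 3′ end overlapped an LSD1 peak of 0 min by 495 bp. That LSD1 peak (65978270 to 65979078) covers the end of the coding sequence and part of the 3′ UTR, and its score of 69.73 ranks 898 of 34990 in its list. It had no counterpart among LSD1 peaks of 30 min. Of all displaced peaks, 5.37% overlapped an LSD1 peak of 0 min and 4.13% an HP1γ peak of 0 min. The intronic displaced peak overlapped neither.

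LSD1 peaks in the window of BPTF numbered 6 at 0 min and 1 at 30 min. At least 1 peak lay in the window of 44.3% of all genes at 0 min and of 49.8% at 30 min. The densities were 23.2 per Mb (interval 8.51 to 50.5) and 3.87 per Mb (0.0979 to 21.5), and these intervals overlap. On chromosome 17 as a whole LSD1 peaks fell in number too, from 18.1 to 10.0 per Mb. Beside the peak at the 3′ end, the 0 min list had 1 peak 44.7 kb upstream of the gene (65776469 to 65777074, score 51.7) and 4 within it, with scores from 32.78 to 40.76. One of these (65908245 to 65908804) reaches coding sequence and the others are intronic. The 30 min peak (65877211 to 65877654, score 38.13) lies 55.7 kb into the gene, and its middle is printed above. No LSD1 position of 0 min recurred at 30 min, where 3.71% of the whole list did.

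HP1γ peaks in the window of BPTF numbered 3 at 0 min and 4 at 30 min, all inside the gene. At least 1 peak lay in the window of 53.4% of all genes at 0 min and of 50.01% at 30 min. The densities were 11.6 per Mb (interval 2.39 to 33.9) and 15.5 per Mb (4.21 to 39.6), against 19.8 and 12.6 per Mb on chromosome 17. At 0 min the highest score, 53.86 (rank 2344 of 31845), belonged to an intronic peak 17.8 kb into the gene (65839384 to 65839691). At 30 min the highest score, 48.74, belonged to the intronic peak 52.6 kb into the gene (65874167 to 65874503). None of the 0 min positions was found again at 30 min, against 4.31% of the whole list. The closest pair were a 0 min peak (65845182 to 65845601) and a 30 min peak (65844357 to 65844735), 446 bp apart.

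The window of RBBP4 held HP1γ peaks of 30 min, 1 of them at the gene start, and no peak of the other 5 lists. The HP1γ peak of 30 min (33116240 to 33116638) ends 105 bp before the outermost annotated start of RBBP4 and 180 bp before the start given in the H2A table. Its first 265 bases lie in ZBTB8OS, which is transcribed from the opposite strand and whose 5′ UTR the peak overlaps. Its other 134 bases are the capitals printed above. The score of 30.31 is near the lowest of the list, 30, and ranks 23634 of 23836. The second 30 min peak (33173193 to 33173656, score 37.37) lies between genes, 27.4 kb past the gene end. The density of chromosome 1 would place 1.13 HP1γ peaks of 30 min in this window, and 27.3% of all genes had 2 or more. At 0 min the nearest HP1γ peak was 141 kb upstream. The density of chromosome 1 would place 1.55 HP1γ and 1.76 LSD1 peaks of 0 min in this window, where none was listed. The nearest LSD1 peak of 0 min was 1580 kb upstream, so the gap in that list reaches far past the window. Peaks are spread unevenly on chromosome 1, with 1 in the window of HDAC1 and 20 in that of LIN9. The density of the whole chromosome is thus a rough yardstick for this region. An LSD1 peak of 30 min (33065012 to 33065457, score 31.11) lay 51.4 kb upstream, just past the edge of the window, so its absence from the count rests on the 50 kb chosen. The nearest displaced BPTF peak was 449 kb away.

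No listed peak lay within 174 kb of SMARCA5, on a chromosome where peaks are sparse. The nearest HP1γ peaks were 174 kb upstream at 0 min and 298 kb upstream at 30 min. LSD1 peaks were nearest at 303 kb at 0 min and 357 kb at 30 min, both downstream. The nearest displaced BPTF peak was 941 kb downstream and the nearest recruited one 3208 kb upstream. These distances were not set beside those of other genes of chromosome 4. A count of 0 allows up to 25.6 peaks per Mb in a window of this length (upper bound of the exact Poisson 95% interval). Chromosome 4 had only 1.84 HP1γ and 1.53 LSD1 peaks per Mb at 0 min, which would place 0.264 and 0.220 peaks in the window. An empty window was therefore not distinguishable from the density of the chromosome.

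**Figure D3:**
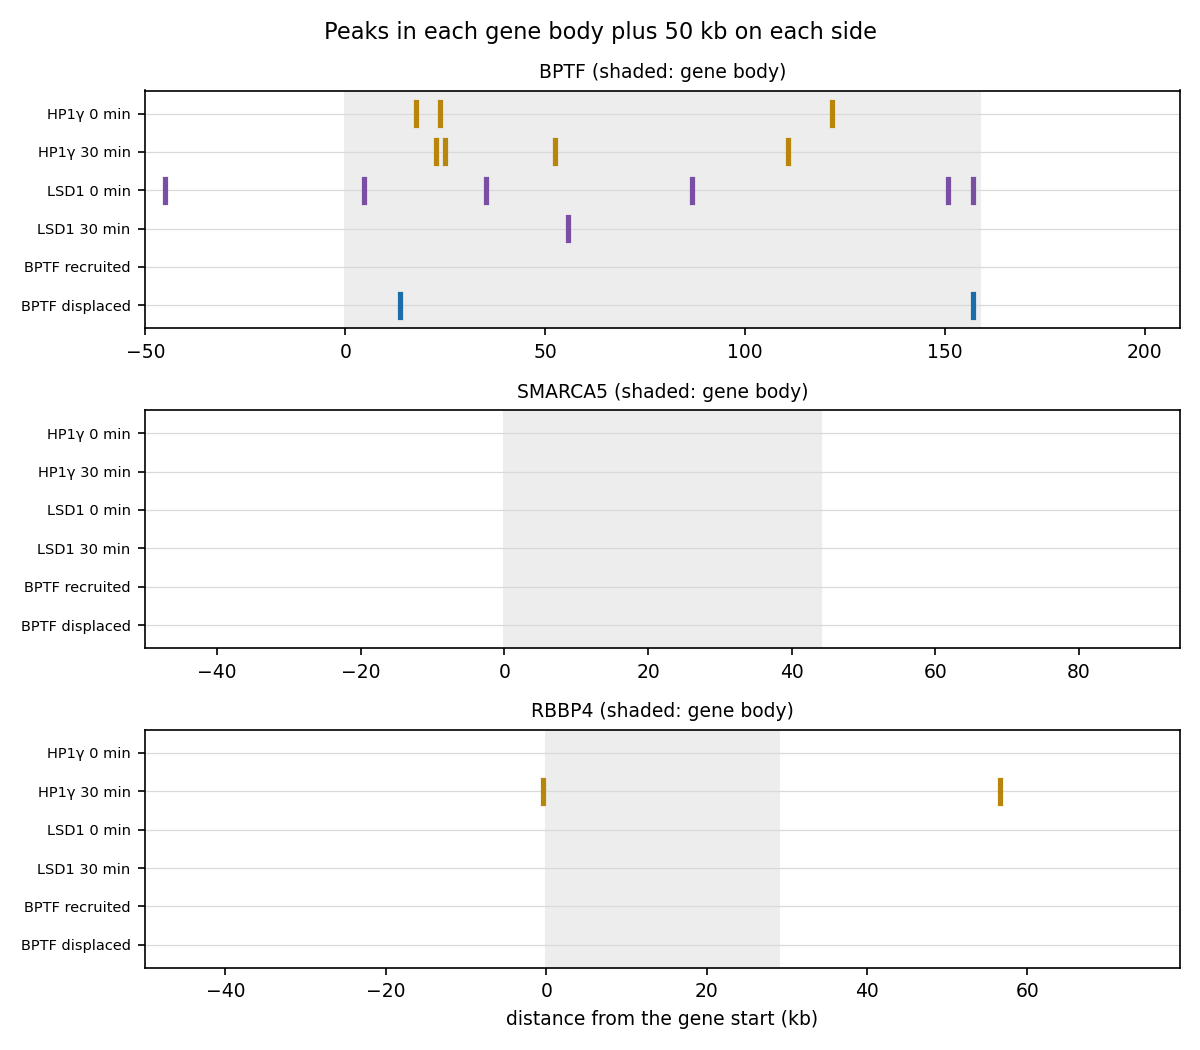
Peaks of the 6 lists (rows) by distance from the gene start in kb (x axis) for BPTF, SMARCA5 and RBBP4, with the gene body shaded and 50 kb shown on each side. Ticks mark peak centres and are wider than the peaks; BPTF holds 16 peaks, SMARCA5 none, and RBBP4 2, both HP1γ at 30 min.

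**Figure D4:**
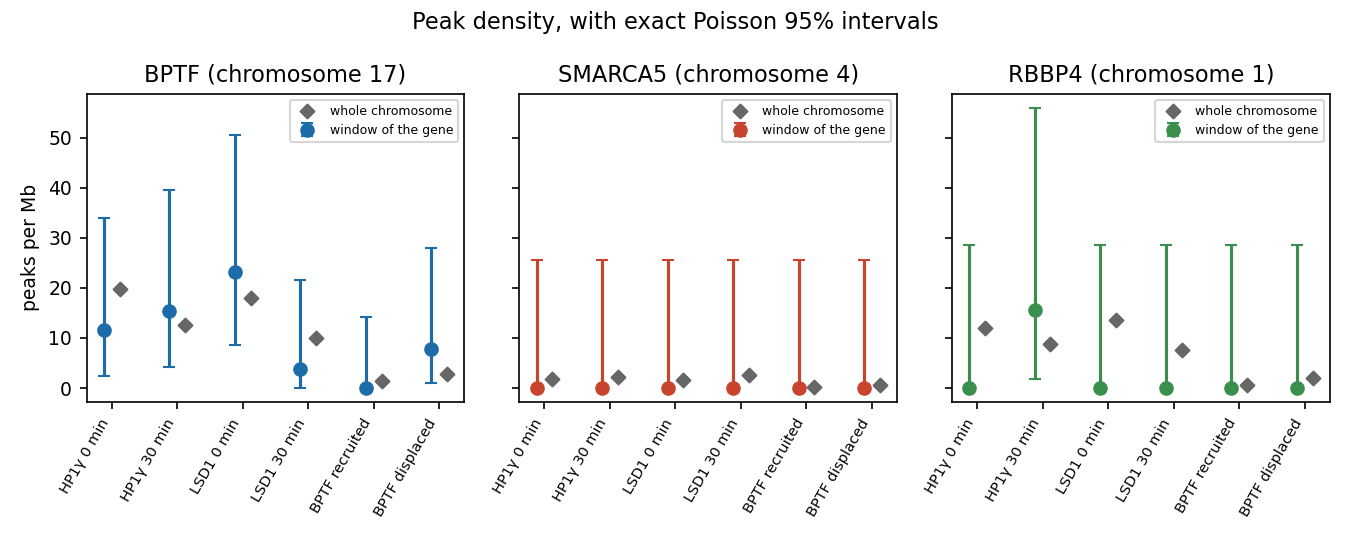
Peaks per Mb (y axis) in the window of each gene (circles, with exact Poisson 95% intervals) and over its whole chromosome (diamonds) for the 6 lists. Each interval spans the value of the chromosome, displaced BPTF peaks at BPTF (7.73 against 2.72 per Mb) included.

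The paralogs, relatives and partners of the 3 proteins were taken from lists. At 30 min none of the 34 genes matched by symbol passed 0.5 either way, where 0.345% of all genes read higher and 1.99% lower past that value. Of the NURF relatives, SMARCA1 had 0.590 RPKM at 0 min, 0.724 at 30 min and 0.604 at 60 min. Like SMARCA5 it is GC-poor (36.9% GC) and highest in the 30 min library, with a log2 change of 0.27 at 30 min and 0.03 at 60 min. With the GC trend taken off, it had 0.09 at 30 min. RBBP7, the paralog of RBBP4, had 4.037, 3.880 and 4.046 RPKM at the 3 times, and a log2 change of -0.06 at 30 min, which was -0.02 with the trend taken off and turned to 0.09 against the median gene. The lowest of this list was C17orf49, which encodes the NURF-associated protein BAP18, at -0.28, which turned to 0.03 with the trend taken off. The median of the 4 was -0.06, against -0.14 over all genes, and turned to 0.01 with the trend taken off.

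Partners of SMARCA5 in other ISWI complexes (8 genes) had a median of -0.11, with 3 above 0 and 5 below. They ran from CHRAC1, a histone-fold subunit of CHRAC, at -0.28 to BAZ2B, a bromodomain protein, at 0.26. With the GC trend taken off, 5 lay above 0 and 3 below with a median of 0.02, and the highest was BAZ1A, the partner of SNF2H in ACF, at 0.09. Partners of RBBP4 (22 of 24 matched) had a median of -0.12, with 9 above 0 and 13 below. They ran from LIN37 of the DREAM complex at -0.43 to SAP30 of the SIN3 complex at 0.27. SAP30 kept 0.28 with the trend taken off, on a counting standard error of 0.14, and 12 of the 22 then lay above 0 with a median of 0.00.

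**Figure D5:**
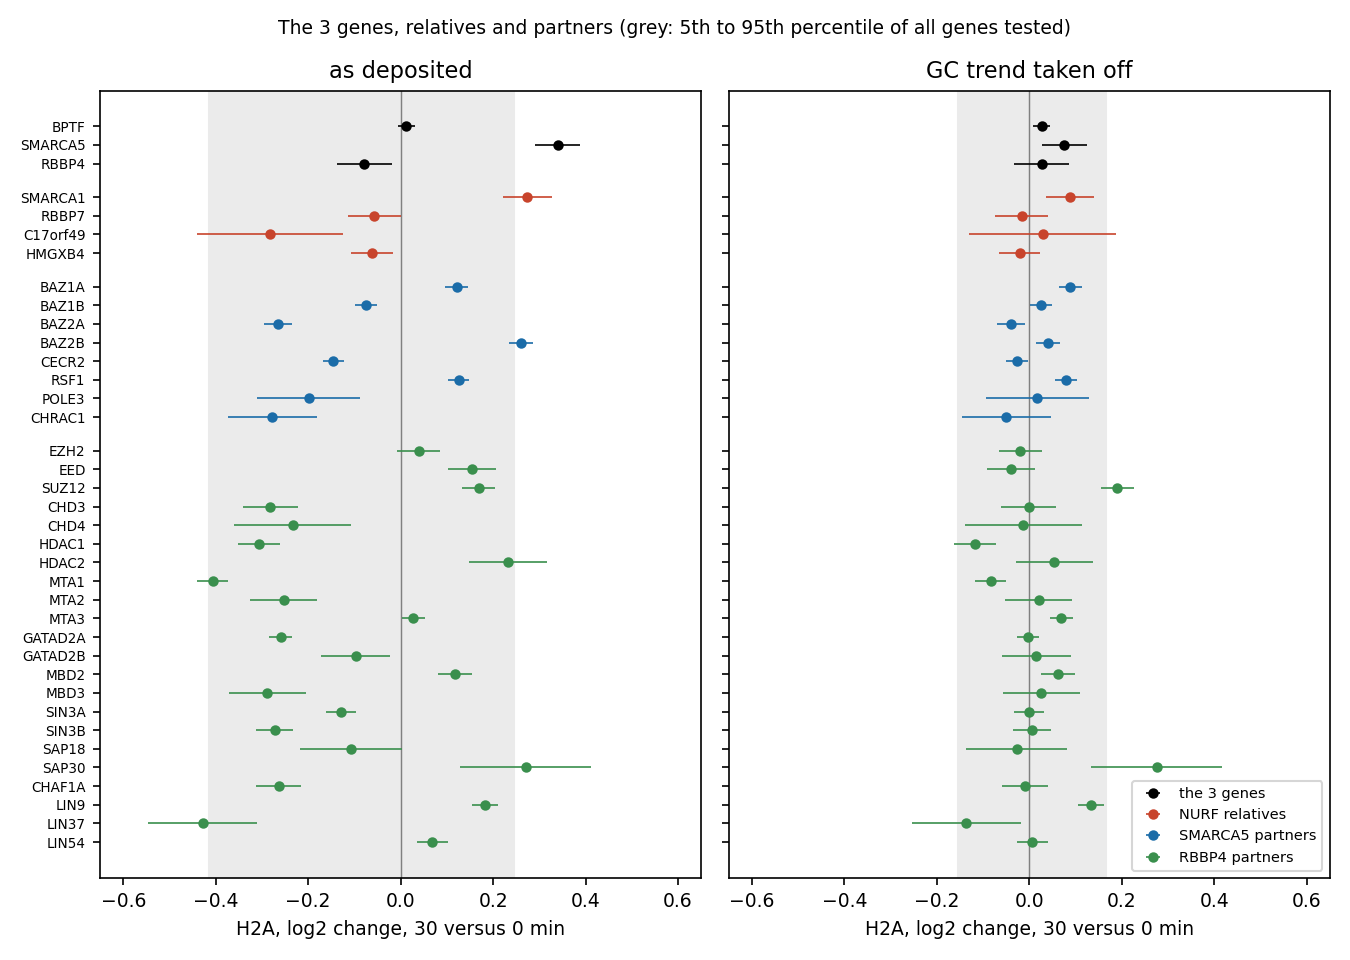
H2A log2 change at 30 min against 0 min (x axis) for the 3 genes and the listed relatives and partners (rows), as deposited (left) and with the GC trend taken off (right). Each point compares 1 library of 30 min with 1 of 0 min and has 1 counting standard error. The grey band is the 5th to 95th percentile of all genes tested. The spread of the genes is narrower on the right. SAP30 lies to the right of the band in both panels (0.27 and 0.28). In the left panel SMARCA5 (0.34), SMARCA1 (0.27) and BAZ2B (0.26) also lie above the band and LIN37 (-0.43) below it. All of these lie inside the band in the right panel. SUZ12 lies inside the band on the left (0.17) and to the right of it on the right (0.19).

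All 8 partners of SMARCA5 had at least 1 peak of any list in their window, 17 of 22 partners of RBBP4 did, and 1 of 4 NURF relatives did, against 79.2% of all genes. SMARCA1, like SMARCA5, had none, and RBBP7 had 3. Displaced BPTF peaks lay in the window of 1 of 8 partners of SMARCA5, BAZ1B, and of 6 of 22 partners of RBBP4, against 18.3% of all genes, with 2 peaks at LIN9 and 1 each at EED, MTA1, MTA3, GATAD2A and GATAD2B. Recruited peaks lay at 1 of the 8, POLE3, and at 3 of the 22, MBD2, LIN9 and LIN37, against 12.1% of all genes. The lists are short, and no difference of these counts from the shares of all genes was tested.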

How the data were processed

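ChIP-seq of 9 samples was used, 1 for each antibody and time, grouped from the sample titles. Bowtie 1.0.0 and HOMER 4.7.2 are named in the submitters' processing notes, with build hg19. H2A values are RPKM as deposited by the authors, counted by HOMER on both strands over GENCODE version 18 genes, per the file headers. HP1γ and LSD1 peaks carry a score deposited by the authors, at least 30, whose definition, caller version and control are not given in the sources used here. BPTF peaks are positions alone, deposited by the authors as displaced or recruited, and the criterion is not given in the sources used here. Starts in all peak files were raised by 1 on the assumption that they count from 0.

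Computed here: log2 ratios of RPKM plus 0.05 over the 19709 genes that averaged 0.1 RPKM or more, and residuals from a lowess trend (fraction 0.3) on the GC content of the gene, with Python 3.11.15, statsmodels 0.14.6 and pysam 0.24.0. Lengths and GC come from the GRCh37 reference, and no gene or peak passed the end of a chromosome. Steps in the RPKM of 53 genes with 1 transcript and under 400 bp gave depths of 140.8, 168.6 and 133.1 M reads at 0, 30 and 60 min. All 53 values came out whole within 0.05 reads, against a median of 9.43% over trial depths. Transcript numbers came from GENCODE version 44, not 18, so counting errors are approximate. Peaks were counted by an overlap of at least 1 bp. Scripts were tested on simulated data. The 3 genes, the lists and the rule for named genes (the 3 genes, the lowest and highest of each list at 30 min, the paralogs, the 3 nearest genes, and peaks with the highest score or nearest to the start, with kept and BPTF peaks) were chosen with earlier results of these data known. SUZ12, the genes with BPTF peaks and the LSD1 peak beside the window of RBBP4 were named after their values were seen. CHAF1B and LIN52 were not matched by symbol and not analysed here. An item that was withheld is not reported here.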

Additional observations from a re-analysis of the deposited data

How the results depend on the processing

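No paired analysis was possible because each group has 1 sample, and no sample could be left out in turn. None of the 3 genes passed 0.5 in any of the 3 H2A comparisons under a pseudocount of 0.5, no filter on low values, centring on the median or the GC trend taken off. SMARCA5 at 30 min came closest, at 0.48 when centred, and had 0.22 with the larger pseudocount. Over all genes, 68 higher and 392 lower past 0.5 at 30 min became 7 and 54 with that pseudocount, 294 and 106 when centred, and 50 lower with the GC trend taken off. At 60 min, 49 and 126 became 3 and 4 with that pseudocount and 75 and 58 off the trend. From 30 to 60 min, 149 and 58 became 12 and 3, 79 and 93 when centred, and 66 higher off the trend. Peaks per Mb over the 3 windows together were 5.64 (HP1γ) and 11.3 (LSD1) at 0 min, and 11.3 (HP1γ) and 1.88 (LSD1) at 30 min. With a score of at least 50 these became 1.88 for HP1γ and 3.76 for LSD1 at 0 min and 0 for both at 30 min, since fewer peaks remain. HP1γ, higher at 30 min than at 0 min with all peaks, was then lower. That turn rests only on the 0 min peak at 65839384 to 65839691 (score 53.86). With all peaks the HP1γ counts were 3 and 6, with overlapping intervals (1.16 to 16.5 and 4.14 to 24.6 per Mb). Over the gene body alone the densities were 12.9 (HP1γ) and 21.6 (LSD1) at 0 min and 17.3 and 4.32 at 30 min. Displaced BPTF peaks went from 3.76 to 8.63 per Mb, which is the same 2 peaks over shorter windows. With 100 kb on each side the same 2 displaced peaks gave 2.40, and with the peak centre in place of any overlap no density moved. Kept positions rose from 0 to 1 when a gap of up to 500 bp was allowed. The unknown depth of the peak libraries limits every comparison of peak numbers between times.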

Other observations

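Other genes of the H2A table that reach into the 3 windows give the surroundings of the changes above. Beside SMARCA5 lie GAB1, an adaptor of receptor tyrosine kinases (37.8% GC), and FREM3, an extracellular matrix gene (39.5% GC). GAB1 had 3.744, 3.896 and 3.810 RPKM at 0, 30 and 60 min, a log2 change of 0.06 at 30 min that turned to -0.08 with the GC trend taken off. FREM3 had 0.04, which turned to -0.01. Both lie below SMARCA5 at 30 min, at 0.34 as deposited and 0.08 off the trend. ZBTB8OS, a tRNA ligase complex gene that starts beside RBBP4 on the opposite strand, had 4.323, 3.551 and 4.126 RPKM. Its log2 change at 30 min was -0.28 (counting standard error 0.06), and -0.16 with the GC trend taken off, where RBBP4 had 0.03. The difference between these neighbours has no replicate check and was not tested. ZBTB8A and SYNC, also in that window, had -0.15 each, and -0.04 and 0.05 off the trend. C17orf58, the neighbour of BPTF, had -0.16 (standard error 0.16) and 0.05.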
